A study of Mus musculus with 123 samples.

Results

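Nanog, Esrrb, Tfcp2l1, Tbx3, Prdm14 and Zfp42 are transcription factor genes counted among the core of naive pluripotency. They were followed here through preimplantation mouse embryos with and without Oct4 (gene Pou5f1) or Sox2. The 6 genes were picked by symbol, as the factors usually named together for the naive state, from the 29022 genes of the count table. Each library came from 1 embryo (whole morula or isolated inner cell mass, ICM), and its RNA was read near the 3′ end and counted by unique molecular identifiers (UMIs). All embryos fell into 16 groups by line, genotype and stage.

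In the Oct4 line, KO embryos had lost both copies: the fathers were Oct4 +/mKO2, the mothers Oct4 flox/flox; ZP3-Cre, and Zp3-Cre removes the floxed allele in the oocyte. Ctrl embryos came from the same matings and had no maternal Oct4, but kept an intact paternal allele, so maternal loss is shared by Ctrl and KO. The Sox2 line was built alike from Sox2 +/EGFP males and Sox2 flox/flox; ZP3-Cre females. MWT embryos had mothers whose own gene was intact. The strain label was B6C3F1 throughout. Morulae were taken at E2.75. ICMs were freed by immunosurgery at a stage equivalent to E3.75 (early) or E4.5 (late), from embryos collected at E2.5 and cultured with 1 μM of the MEK inhibitor PD0325901, which holds back primitive endoderm. Each Ctrl and KO group held 8 embryos. The MWT groups were Oct4 morula (7 embryos), Oct4 early ICM (5), Oct4 late ICM (8) and Sox2 early ICM (7). For the 13 Oct4 MWT ICMs a second label gave an earlier stage than the title, and the title was used. Stage, culture and ICM isolation changed together between morula and ICM, and line and batch cannot be told apart.

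Naive pluripotency is the state of the epiblast before implantation, which embryonic stem cells keep in culture with leukaemia inhibitory factor and MEK inhibition. The network that holds it is made of transcription factors that bind many of the same enhancers, with Oct4 and Sox2 as partners on a joint OCT-SOX element. Nanog is a homeodomain factor needed to form the epiblast. Esrrb is an orphan nuclear receptor and Tfcp2l1 a CP2-family factor, and either can sustain stem cell self-renewal when overexpressed. Tbx3 is a T-box factor tied to PI3K signalling and also expressed in extraembryonic endoderm. Prdm14 is a PR-domain zinc finger protein that represses FGF signalling and DNA methyltransferase genes and is needed in germ cells. Zfp42 encodes Rex1, a Yy1-related zinc finger protein best known as a marker of the naive state.

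In the mm10 build the genes lay apart from each other. Nanog (ENSMUSG00000012396) was at chr6:122707489-122714633 on the plus strand, Esrrb (ENSMUSG00000021255) at chr12:86361117-86521628 (plus), Tfcp2l1 (ENSMUSG00000026380) at chr1:118627945-118685168 (plus), Tbx3 (ENSMUSG00000018604) at chr5:119670669-119684724 (plus), Prdm14 (ENSMUSG00000042414) at chr1:13113457-13127163 (minus) and Zfp42 (ENSMUSG00000051176) at chr8:43295063-43306980 (minus). Tbx3 overlaps the antisense gene Tbx3os1, and Tfcp2l1 overlaps 3 small predicted genes. Whether counting used the strand was not stated, so reads of such pairs may not be told apart, but Tbx3os1 held at most 1.60 CPM on average in any group. Nanog and Zfp42 have pseudogene copies whose reads could be split; Zfp42-ps1 averaged at most 0.543 CPM in any group.

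RefSeq promoter windows (GRCm38.p6, the assembly of mm10) were at hand for 4 of the 6 genes: Nanog, Esrrb, Tfcp2l1 and Zfp42. The Nanog and Zfp42 sequences are shown because they are the only windows of these genes with an octamer. The 250 bases before the start are given 5′ to 3′ on the gene's strand, Nanog at chr6:122707239-122707488 (plus) and Zfp42 at chr8:43307010-43307259 (minus). Capitals mark letters that matched the octamer TTTGCAT, the Sox letters ACAATG or the joint letters GCATNACAA.
Nanog: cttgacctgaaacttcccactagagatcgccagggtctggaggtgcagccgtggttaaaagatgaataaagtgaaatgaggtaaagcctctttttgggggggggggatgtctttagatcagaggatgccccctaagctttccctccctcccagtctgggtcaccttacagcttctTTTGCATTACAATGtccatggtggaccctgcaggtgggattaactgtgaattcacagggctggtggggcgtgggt
Zfp42: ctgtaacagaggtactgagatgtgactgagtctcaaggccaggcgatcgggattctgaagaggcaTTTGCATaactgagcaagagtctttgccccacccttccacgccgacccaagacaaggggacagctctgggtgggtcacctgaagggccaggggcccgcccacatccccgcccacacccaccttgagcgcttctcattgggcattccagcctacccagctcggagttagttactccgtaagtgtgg

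In Nanog the octamer lay from -75 to -69 and the Sox letters from -67 to -62, and the joint letters, which overlap both, from -72 to -64. The Zfp42 octamer lay from -185 to -179, with no Sox letters in its window. Of 32851 windows of 300 bases, searched on both strands, 4.63% held the octamer, 12.6% the Sox letters and 0.731% the joint letters. One of the 2 Esrrb windows held the Sox letters on the opposite strand, from +33 to +38 after the start. Letters searched for Esrrb (TCAAGGTCA, in 0.423% of all windows), T-box factors (AGGTGTGA, 1.28%), Prdm14 (GGTCTCTAA, 0.256%) and Yy1 or Zfp42 (GATGGC, 14.1%) matched in no window of these genes. A match is a run of letters and not a measured site.

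Library totals ran from 525755 to 1344035 UMIs per embryo, and levels are given as CPM, the UMIs of a gene per 1000000 of these. No 2 embryos of a group agreed within sampling noise. Pou5f1, which checks the labels, summed to 3, 7 and 1 UMIs over the 8 Oct4-KO morulae, early ICMs and late ICMs, against 163, 550 and 236 in Ctrl. Sox2 was at 1.57 CPM in Sox2-KO morulae against 13.8 in Ctrl, at 23.6 against 109 in early ICMs and at 16.1 against 183 in late ICMs, so Sox2 reads were fewer but not gone in Sox2-KO ICMs. Pou5f1 stood at 113 against 115 CPM in Sox2-KO and Ctrl late ICMs. Of the summed epiblast, trophectoderm and primitive endoderm markers, the epiblast sum (Pou5f1, Sox2, Nanog, Fgf4, Tdgf1, Utf1) had medians of 1468 to 2531 CPM in Ctrl ICMs and of 422 to 426 in Ctrl morulae. All 10 trophectoderm markers were still detected in both groups of Ctrl late ICMs.

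RNA of all 6 genes was already detected in each morula group, but at very unlike levels. Nanog averaged 193 to 313 CPM over the 5 morula groups, Tfcp2l1 153 to 381, Zfp42 188 to 264 and Tbx3 140 to 182. Esrrb was lower, at 47.1 to 97.99 CPM, and Prdm14 lowest, at 3.45 to 6.56 CPM, which is a handful of UMIs per embryo. Because reads came from the 3′ end, CPM was not divided by gene length, and levels of different genes are set side by side only as read yields.

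**Figure D1:**
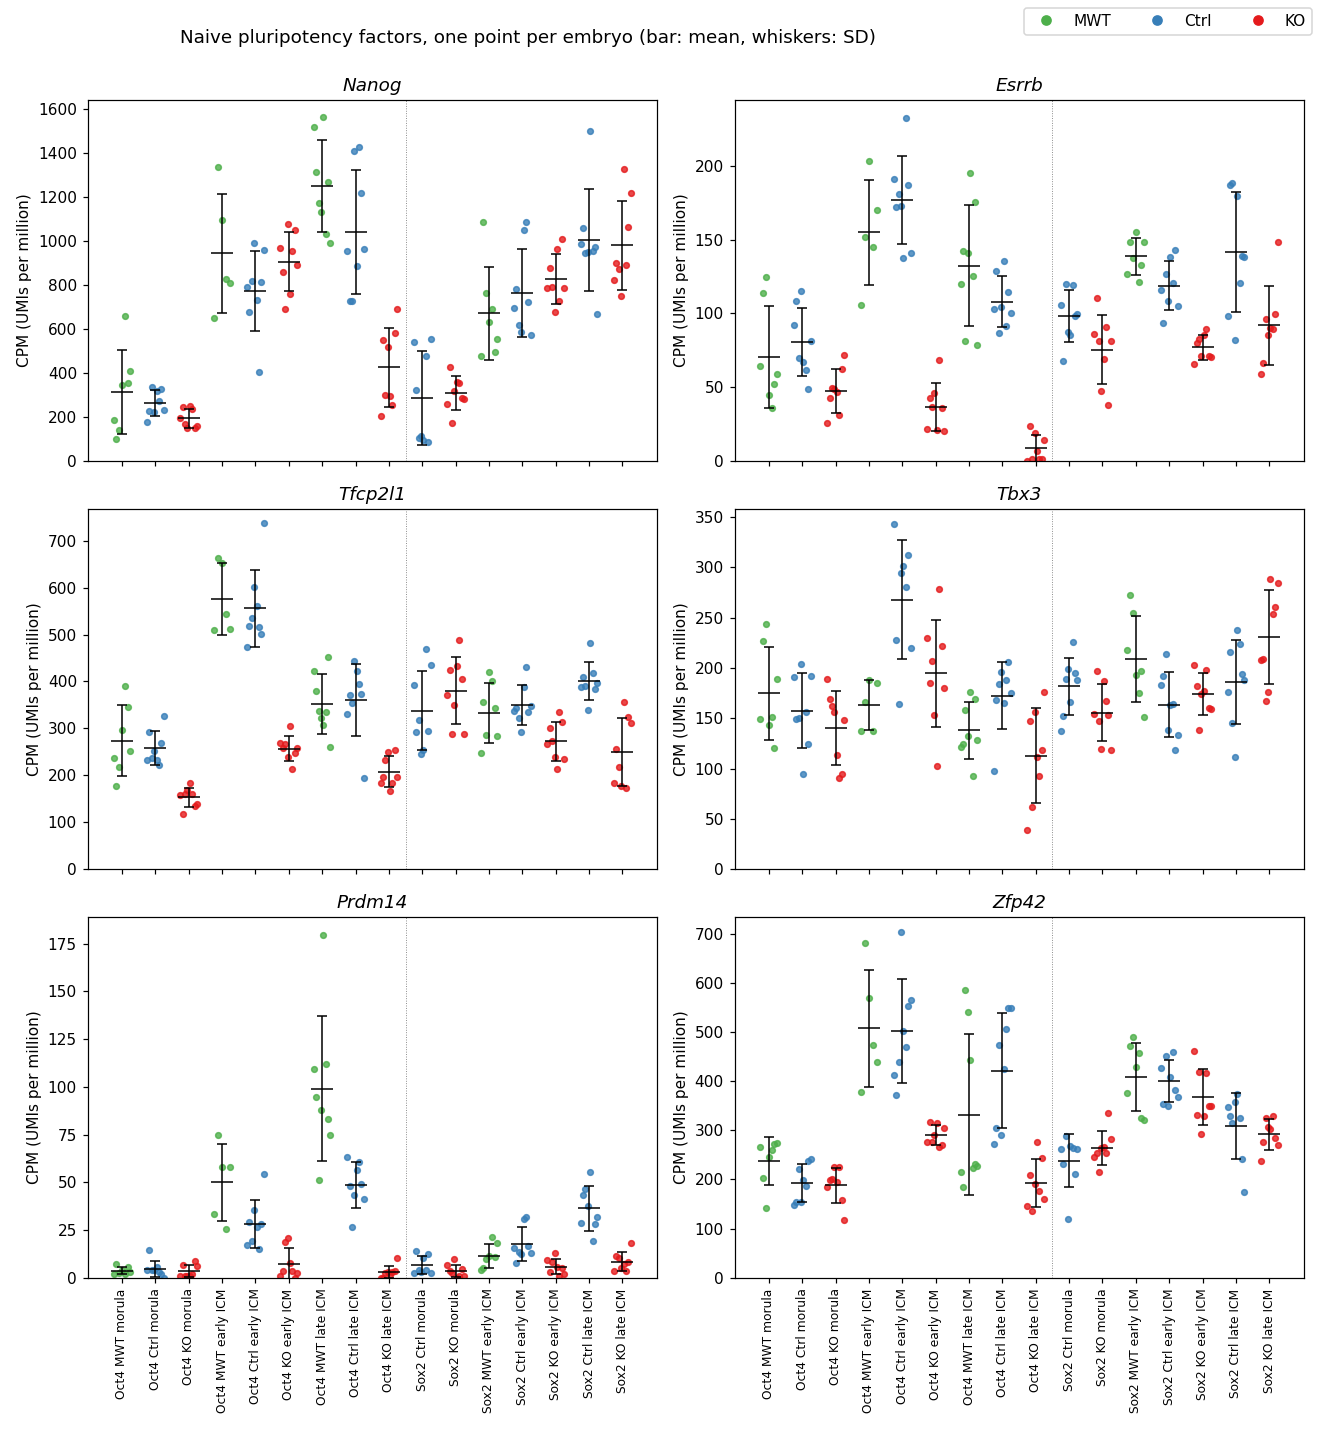
Levels of the 6 genes in CPM (linear axes from 0), 1 point per embryo, for the 16 groups; horizontal bars are means, whiskers SD, and the dotted line parts the Oct4 from the Sox2 line. Esrrb and Prdm14 in Oct4-KO late ICMs lie near 0 (means of 8.36 and 2.91 CPM), while Nanog there averaged 425 CPM.

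Ordered by mean level, an Oct4-KO group was lowest for each of the 6 genes, but Oct4-KO early ICMs ranked 6 of 16 for Nanog and 4 of 16 for Tbx3. Esrrb was lowest in Oct4-KO late ICMs (8.36 ± 9.30 CPM, SD, n = 8), then Oct4-KO early ICMs (36.4 ± 16.4) and Oct4-KO morulae (47.1 ± 15.04). It was highest in Oct4 Ctrl early ICMs (177 ± 30.1). Prdm14 ran from 2.91 ± 3.27 CPM in Oct4-KO late ICMs to 99.1 ± 37.9 in Oct4 MWT late ICMs. Nanog ran from 193 ± 44.3 CPM in Oct4-KO morulae to 1250 ± 210 in Oct4 MWT late ICMs. Tfcp2l1 spanned 153 ± 20.5 CPM (Oct4-KO morulae) to 576 ± 75.9 (Oct4 MWT early ICMs), and Zfp42 188 ± 35.8 (Oct4-KO morulae) to 507 ± 119 (Oct4 MWT early ICMs). Tbx3 had the narrowest span as a ratio, from 113 ± 47.2 CPM (Oct4-KO late ICMs) to 268 ± 58.8 (Oct4 Ctrl early ICMs).

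Neighbours in these orders rarely stood apart. Of the 90 pairs of neighbouring groups over the 6 genes, 7 differed by more than the larger of their SDs. These were 2 pairs each for Nanog, Tfcp2l1 and Prdm14, 1 for Esrrb and none for Tbx3 and Zfp42. The Esrrb gap parted Oct4-KO late ICMs from every other group. The Nanog gaps fell between Sox2 MWT early ICMs (672 CPM) and Oct4-KO late ICMs (425), and between Oct4 Ctrl and Oct4-KO morulae. The Prdm14 gaps parted Oct4 MWT late ICMs from the rest, and the Oct4 Ctrl late from the Sox2 Ctrl late ICMs (48.6 against 36.3 CPM).

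Loss of Oct4 was asked about first at the morula stage. A gene passed the test when its adjusted p was under 0.05 (edgeR's quasi-likelihood test, Benjamini-Hochberg over 14053 genes) with a log2 fold change of at least 1 in size; SE follows each fold change. None of the 6 genes passed in Oct4-KO morulae, where 0.804% of all genes did, and DESeq2 and limma passed none either. By edgeR 2 of the 6 had an unadjusted p under 0.05, as did 1707 of the 14053 genes. Tfcp2l1 came nearest. Its Ctrl morulae held 222, 244 and 327 CPM (lowest, median, highest) and its KO morulae 119, 159 and 183, so that every KO embryo lay below every Ctrl embryo, which held for 0.306% of all genes. The log2 fold change was -0.70 ± 0.14 (adjusted p = 0.000908, under the fold minimum). Esrrb, at 48.4, 75.5 and 116 CPM in Ctrl and 25.5, 47.6 and 71.7 in KO, had all 8 KO embryos below the Ctrl median but overlapping groups (-0.72 ± 0.23, adjusted p = 0.0902). Nanog (-0.39 ± 0.24), Prdm14 (-0.31 ± 0.55), Tbx3 (-0.12 ± 0.18) and Zfp42 (0.02 ± 0.14) had adjusted p of 0.554 to 0.983.

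In Oct4-KO early ICMs 3 of the 6 genes fell: Esrrb, Prdm14 and Tfcp2l1. Of all genes 10.9% passed the test and 6.11% passed as lower. Nanog did not pass, and its mean was 907 ± 134 CPM against 773 ± 182 in Ctrl (log2 fold change 0.30 ± 0.23, adjusted p = 0.389). For Esrrb, the 8 Ctrl ICMs held 137, 177 and 233 CPM (lowest, median, highest) and the 8 KO ICMs 19.9, 36.1 and 68.3. No KO embryo reached the lowest Ctrl embryo, and the log2 fold change was -2.20 ± 0.23 (adjusted p = 8.73e-13). Tfcp2l1 was nearly as cleanly parted, at 474, 527 and 737 CPM in Ctrl and 214, 257 and 305 in KO, with a change of -1.04 ± 0.14 (adjusted p = 2.45e-09). Leaving out 1 of the 16 embryos, Ctrl number 9, took this change to -0.94, under the fold minimum. It was also under it with limma on rlog values (-0.95) and in the few embryos that share a number between the groups, with the number as a block (-0.92, adjusted p = 0.00526) or without (-0.92, adjusted p = 0.0886).

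Prdm14 rested on fewer molecules. Its Ctrl early ICMs held 15.2, 27.5 and 54.4 CPM, or 13 to 51 UMIs each, and its KO early ICMs 0, 3.65 and 20.8 CPM. Of the 8 KO embryos 6 lay below all Ctrl embryos, and 2, at 18.9 and 20.8 CPM, lay inside the Ctrl range. The log2 fold change was -1.86 ± 0.42 (adjusted p = 0.000381). Zfp42 went the same way under the fold minimum, with 371, 486 and 704 CPM in Ctrl and 266, 284 and 317 in KO (-0.72 ± 0.14, adjusted p = 2.49e-05). Esrrb, Tfcp2l1 and Zfp42 were the 3 genes with every KO early ICM below every Ctrl early ICM, a pattern found in 2.8% of all genes. With no fold minimum 4 of the 6 genes passed, beside 21% of all genes. Tbx3 was at 268 ± 58.8 CPM in Ctrl and 195 ± 53.0 in KO, and did not pass (-0.38 ± 0.17, adjusted p = 0.110).

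By the late ICM 4 of the 6 genes had fallen without Oct4: Esrrb, Prdm14, Nanog and Zfp42. The test was passed by 18.1% of all genes, and by 8.85% as lower. Esrrb was nearly silent. Its Ctrl late ICMs held 86.8, 104 and 135 CPM and its KO late ICMs 0, 3.88 and 23.8, and the 8 KO embryos summed to 49 UMIs against 583. Per total, that is 7.48% of the Ctrl level (95% exact Poisson interval 5.47 to 10.0%, which covers counting error only), and the log2 fold change was -3.61 ± 0.30 (adjusted p = 2.33e-18). Prdm14 fell too, from 26.7, 48.5 and 63.3 CPM to 0, 2.61 and 10.3, or from 260 UMIs in all to 18. This left 6.16% of the Ctrl level (3.60 to 9.94%), with a log2 fold change of -3.88 ± 0.48 (adjusted p = 1.40e-10). KO embryo 2-7 held 8 of the 18 UMIs, and without it, an alternative chosen after seeing the data, the share was 3.93% (1.86 to 7.35%). For both genes every KO embryo lay below every Ctrl embryo.

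Nanog, which had not passed in early ICMs, fell in late ICMs. The Ctrl late ICMs held 729, 958 and 1430 CPM and the KO late ICMs 203, 409 and 693. All 8 KO embryos lay below the lowest Ctrl embryo, and the log2 fold change was -1.19 ± 0.24 (adjusted p = 2.47e-05). Nanog, Esrrb and Prdm14 were the 3 genes with no overlap and KO lower, beside 3.35% of all genes. The spread within the KO group was wide, with a coefficient of variation of 42.7% and no embryo below 130 Nanog UMIs. Per total, Nanog stood at 41.8% of the Ctrl level. Its 95% exact Poisson interval, 39.9 to 43.9%, covers counting error only and not the spread between embryos.

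Zfp42 passed by a small margin. It went from 271, 449 and 549 CPM to 135, 184 and 277, with 7 of 8 KO embryos below all Ctrl embryos (-1.02 ± 0.14, adjusted p = 3.45e-09). Leaving out any of 9 of the 16 embryos (5 Ctrl, 4 KO) took its change to between -0.95 and -0.99, under the fold minimum, with adjusted p still at most 6.74e-08. Of 8 other ways of processing, 7 kept the Zfp42 call, and the remaining one gave -0.93, under the fold minimum. Tfcp2l1 (361 ± 76.1 CPM in Ctrl and 208 ± 33.2 in KO, -0.70 ± 0.14, adjusted p = 2.91e-05) and Tbx3 (172 ± 33.2 and 113 ± 47.2, -0.51 ± 0.18, adjusted p = 0.0237) stayed under the fold minimum. With no minimum all 6 genes passed in Oct4-KO late ICMs, as did 31.7% of all genes.

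**Figure D2:**
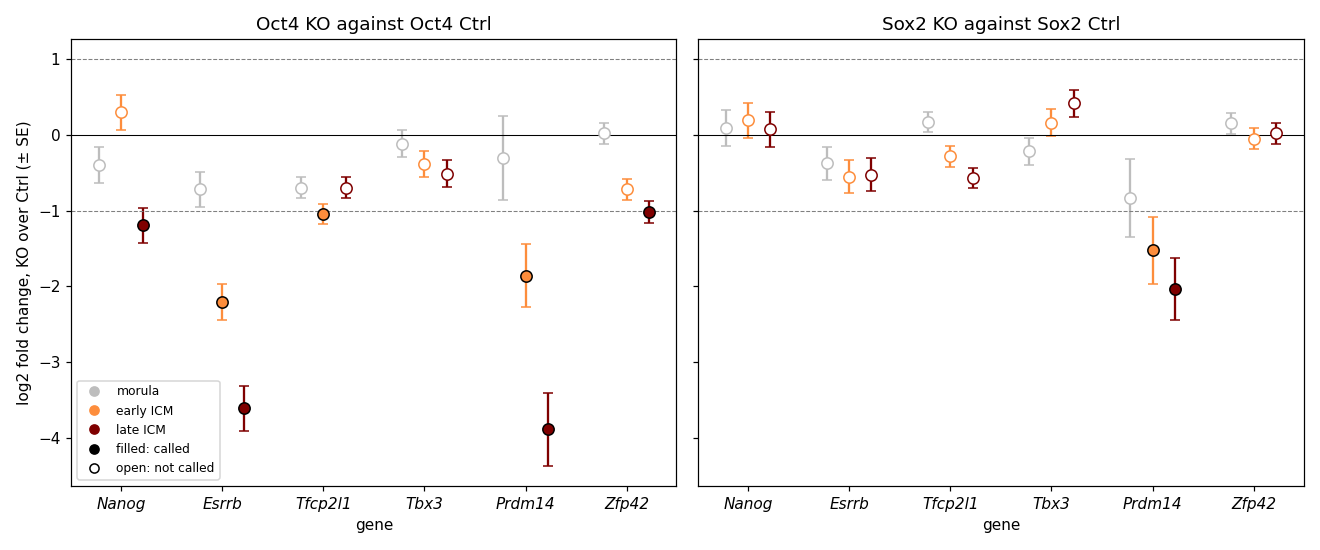
Log2 fold change of KO over Ctrl ± SE for the 6 genes, by stage, in the Oct4 line (left) and the Sox2 line (right); filled points passed adjusted p under 0.05 and a change of at least 1 (dashed lines). In Oct4-KO late ICMs 4 genes are filled, led by Prdm14 (-3.88) and Esrrb (-3.61), and in Sox2-KO ICMs Prdm14 is the only one filled.

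Late ICMs carry a first digit in their numbers that splits them into 2 label sets, and the Oct4-KO changes had one direction in both. As log2 ratios of mean CPM, Esrrb stood at -3.35 in the first set (4 KO, 5 Ctrl) and -4.14 in the second (4 KO, 3 Ctrl), Prdm14 at -5.18 and -3.49 (-4.29 without embryo 2-7), Nanog at -1.26 and -1.40, and Zfp42 at -1.05 and -1.32. The deepest Prdm14 value belonged to a set whose KO embryos averaged 1.31 CPM, close to 1 UMI each.

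Markers of other tissues moved with the genotype. The 10 trophectoderm markers summed to 2213 to 4641 CPM in Oct4-KO late ICMs and to 408 to 1630 in Ctrl, with no overlap, and 8 of the 9 tested passed as higher. In early ICMs the sums were 824 to 1678 CPM in KO and 288 to 1591 in Ctrl, with 3 higher, among them Gata3 (2.01 ± 0.33, adjusted p = 1.31e-06), and 1 lower, Elf5. In morulae the trophectoderm sums were 767 to 1569 CPM in KO and 511 to 1376 in Ctrl, with 1 higher. Of all 14053 genes, 1300 passed as higher and 1244 as lower in Oct4-KO late ICMs. These counts were 670 and 859 in early ICMs, and 25 and 88 in morulae. In Oct4-KO early ICMs Esx1 was at 0 in every embryo; in Oct4-KO late ICMs none of the 10 was. The 12 primitive endoderm markers summed to 904.5 to 1674 CPM in KO early ICMs and 616 to 957 in Ctrl, with 2 of the 10 tested higher and 2 lower. In late ICMs they summed to 991 to 2051 CPM in KO and 290 to 1541 in Ctrl, but their members split, with 3 of the 10 tested higher and 4 lower: the endocytic genes Lrp2 (3.59 ± 0.42) and Dab2 (2.29 ± 0.34) and the transcription factor gene Gata6 (1.25 ± 0.26) rose, while Sox17 (-6.57 ± 1.13), a transcription factor gene of that lineage, was among those that fell. The part of other cells in the changes of the 6 genes was not tested, and in such bulk libraries fewer cells of a type and less RNA per cell cannot be told apart. In Oct4-KO late ICMs Zfp42 kept 46.8% and Tfcp2l1 58.2% of the Ctrl reads per total, while Esrrb kept 7.48%.

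**Figure D3:**
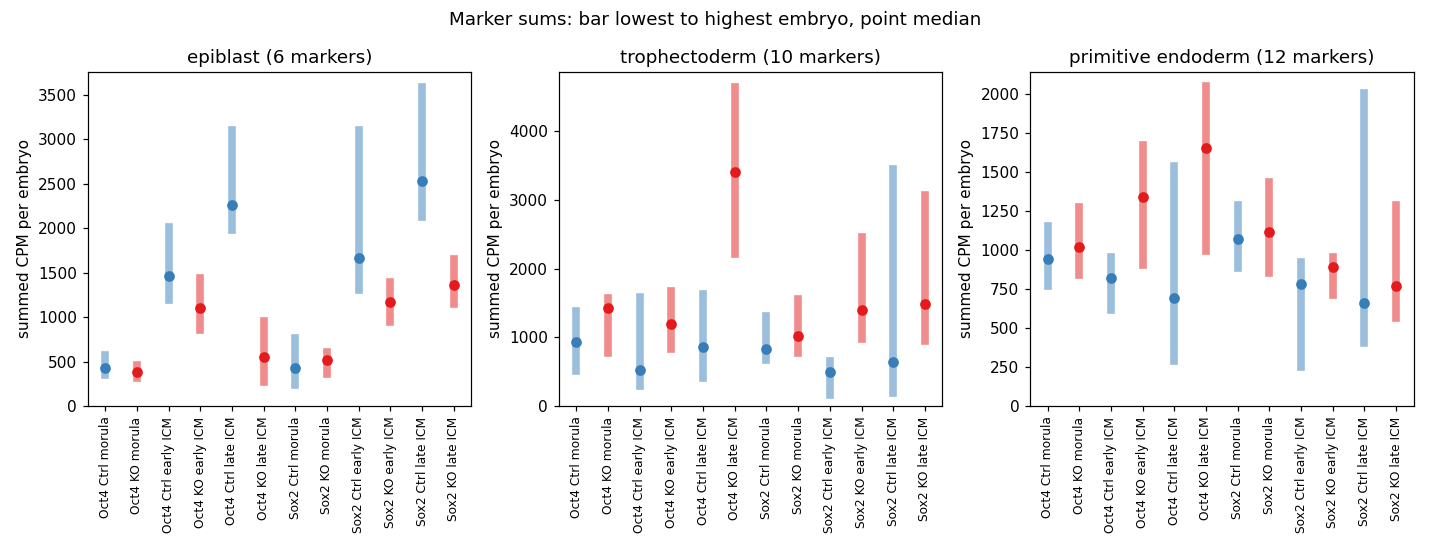
Summed CPM of epiblast, trophectoderm and primitive endoderm markers per embryo in the 12 Ctrl and KO groups; bars run from the lowest to the highest embryo and points are medians. The trophectoderm sum of Oct4-KO late ICMs (median 3404 CPM) lies above its Ctrl (median 853 CPM).

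Loss of Sox2 moved fewer of these genes. In Sox2-KO morulae none passed by edgeR, DESeq2 or limma. Over all genes 0.00712% passed by edgeR, which is Sox2 itself. None of the factors had an unadjusted p under 0.05 by edgeR, while 618 of all 14053 genes did. The log2 fold changes ran from -0.83 ± 0.51 (Prdm14) to 0.17 ± 0.13 (Tfcp2l1).

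In Sox2-KO early ICMs Prdm14 alone passed, beside 3.27% of all genes and 1.69% as lower. Its Ctrl early ICMs held 7.63, 14.4 and 32.0 CPM and its KO early ICMs 1.07, 5.10 and 13.1. All 8 KO embryos were below the Ctrl median and 5 below every Ctrl embryo, with a log2 fold change of -1.52 ± 0.44 (adjusted p = 0.0192). The call was thin: it was lost when Ctrl number 9 or 10 or KO number 11 was left out (adjusted p = 0.0506 to 0.0645) and with counts thinned to one depth (-1.10, adjusted p = 0.255). Esrrb showed the reverse, a clean split with a small change: 93.7, 118 and 143 CPM in Ctrl against 65.8, 75.6 and 89.1 in KO, with no overlap, a pattern of 0.74% of all genes, but -0.55 ± 0.22 and adjusted p = 0.113 in the fit. Nanog (0.19 ± 0.23), Tbx3 (0.16 ± 0.18), Zfp42 (-0.05 ± 0.14) and Tfcp2l1 (-0.28 ± 0.14) had adjusted p of 0.224 to 0.892.

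In Sox2-KO late ICMs Prdm14 was again the one gene to fall, where 6.95% of all genes passed and 3.61% passed as lower. Ctrl late ICMs held 18.98, 34.8 and 55.3 CPM and KO late ICMs 3.53, 7.58 and 18.2. The groups did not overlap, which was so with KO lower for 1.63% of all genes, and the log2 fold change was -2.04 ± 0.41 (adjusted p = 0.000118). It stood at -2.38 and -1.86 in the first and second label set, as log2 ratios of means. Tfcp2l1 went from 339, 394 and 482 CPM to 174, 238 and 356, with 7 of 8 KO embryos below all Ctrl embryos, and stayed under the fold minimum (-0.57 ± 0.14, adjusted p = 0.00161). It and Prdm14 were the 2 genes past the adjusted p alone, as were 13.8% of all genes.

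The other 4 genes did not pass in Sox2-KO late ICMs. Esrrb averaged 142 ± 40.8 CPM in Ctrl and 91.8 ± 27.0 in KO (-0.53 ± 0.22, adjusted p = 0.0954). Nanog was at 1006 ± 231 and 981 ± 204 CPM (0.07 ± 0.23, adjusted p = 0.890), Zfp42 at 308 ± 67.0 and 291 ± 30.7 (0.02 ± 0.14, adjusted p = 0.957). CPM is per library total and the fold changes use TMM scaling; with library totals alone Nanog was at -0.04 and Zfp42 at -0.08, so neither estimate has a settled sign. Tbx3 had 4 of 8 KO embryos above every Ctrl embryo, with means of 231 ± 47.1 against 186 ± 41.8 CPM, and missed the threshold (0.42 ± 0.18, adjusted p = 0.102). Trophectoderm markers moved here too: in early ICMs their sums were 975 to 2453 CPM in KO and 166 to 656 in Ctrl, with 5 of 9 higher, and in late ICMs 941 to 3071 and 188 to 3446, overlapping, with 4 of 9 higher. The primitive endoderm sums were 712 to 956 CPM in KO and 247 to 919.8 in Ctrl early ICMs, with 2 of 10 higher, and 567 to 1285 and 400.4 to 2005 in late ICMs, with 1 lower. The part of these markers in the Prdm14 change was not tested.

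Whether the lines differed was tested as an interaction, the Oct4-KO effect minus the Sox2-KO effect. In morulae no gene of the 6 passed, and 0.356% of all genes did. Tfcp2l1 was again under the fold minimum (-0.87 ± 0.19, adjusted p = 0.0127). In early ICMs Esrrb passed (-1.65 ± 0.32, adjusted p = 0.000134), beside 5.52% of all genes. In late ICMs, where 6.3% of all genes passed, 3 did: Esrrb (-3.08 ± 0.37, adjusted p = 7.75e-10), Nanog (-1.27 ± 0.33, adjusted p = 0.00618) and Zfp42 (-1.04 ± 0.19, adjusted p = 7.89e-05). The Zfp42 difference was under the fold minimum with limma on rlog values (-0.99). These 3 fell in Oct4-KO late ICMs, while none of them passed in Sox2-KO late ICMs. Prdm14, which fell in both, did not pass: its difference of -1.85 ± 0.67 missed the threshold (adjusted p = 0.0665), which does not show that the lines act alike on it. Tbx3 had opposite signs in the lines and a difference of -0.93 ± 0.25 (adjusted p = 0.0103), under the fold minimum, while that of Tfcp2l1 was -0.13 ± 0.19 (adjusted p = 0.763).

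The Oct4-KO effect was then compared between stages. From morula to early ICM it shifted down for Esrrb (-1.49 ± 0.32, adjusted p = 0.00163), beside 3.29% of all genes. From early to late ICM it shifted down for Nanog (-1.50 ± 0.33, adjusted p = 0.00261), whose estimate went from 0.30 to -1.19, and for Esrrb (-1.40 ± 0.39, adjusted p = 0.0192), beside 3.11% of all genes. The Esrrb call was lost with counts thinned to one depth (-1.29, adjusted p = 0.0865) and with limma on rlog values (-0.85, adjusted p = 0.0574). Prdm14 had the largest difference of this step, -2.03 ± 0.67, which missed the threshold (adjusted p = 0.0631). Tfcp2l1 did not pass (0.34 ± 0.19, adjusted p = 0.354). In the Sox2 line no gene of the 6 passed for either step, beside 0.882% and 0.0427% of all genes, and the estimates lay between -0.69 ± 0.70 (Prdm14, early ICM minus morula) and 0.38 ± 0.25 (Tbx3, the same step).

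The stage steps, which share embryos with the comparisons above, show the levels on the way. In Oct4 Ctrl embryos 5 of the 6 rose from morula to early ICM, where 29% of all genes passed and 14.1% passed as higher. Prdm14 rose from 0, 3.83 and 14.3 CPM to 15.2, 27.5 and 54.4 (2.49 ± 0.44, adjusted p = 1.11e-06). Nanog rose from 178, 252 and 338 CPM to 406, 802 and 993 (1.45 ± 0.24, adjusted p = 1.96e-07). Zfp42 (1.28 ± 0.14), Esrrb (1.02 ± 0.22) and Tfcp2l1 (1.01 ± 0.14) rose less, with Esrrb and Tfcp2l1 barely over the fold minimum, and Tbx3 stayed under it (0.65 ± 0.18, adjusted p = 0.00132). With limma on rlog values 3 passed, without Esrrb (0.95) and Tfcp2l1 (0.92), beside 1935 of its 15747 genes, 922 of them as higher. From early to late ICM none passed, beside 15.6% of all genes; Nanog (0.48 ± 0.23) and Prdm14 (0.83 ± 0.36) had positive estimates and the other 4 negative ones, down to -0.64 ± 0.22 for Esrrb (adjusted p = 0.0151).

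Without Oct4 the first step kept the rise of Nanog. It went from 148, 182 and 248 CPM in KO morulae to 693, 923 and 1077 in KO early ICMs (2.15 ± 0.24, adjusted p = 2.20e-12), and it was the one gene of the 6 to pass, beside 26.3% of all genes. Esrrb, which rose in Ctrl, had an estimate of -0.46 ± 0.24 (adjusted p = 0.111) and Prdm14 one of 0.94 ± 0.52 (adjusted p = 0.134). Tfcp2l1 and Zfp42 did not pass either, but their KO early ICMs held 169% and 155% of the KO morula reads per total. With no fold minimum 3 of the 6 genes passed, beside 45.1% of all genes. From KO early to KO late ICM, where 16% of all genes passed, Esrrb fell by 2.05 ± 0.32 on the log2 scale (adjusted p = 1.32e-07) and Nanog by 1.01 ± 0.23 (adjusted p = 0.000295). The Nanog change sits at the fold minimum, and DESeq2 did not pass it.

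In the Sox2 line Nanog (1.32 ± 0.24, adjusted p = 1.26e-06) and Prdm14 (1.37 ± 0.42, adjusted p = 0.00445) rose from Ctrl morula to Ctrl early ICM, beside 31.9% of all genes. Zfp42 was under the fold minimum (0.68 ± 0.14) and the other 3 lay between -0.22 ± 0.18 (Tbx3) and 0.20 ± 0.21 (Esrrb). From early to late Ctrl ICM none passed, beside 2.9% of all genes; Prdm14 had the largest estimate (1.01 ± 0.37, adjusted p = 0.0744), and Zfp42 was under the fold minimum (-0.41 ± 0.14, adjusted p = 0.0489). In Sox2-KO embryos Nanog rose at the first step (1.42 ± 0.24, adjusted p = 2.32e-07; 32.5% of all genes passed), while Prdm14 had an estimate of 0.68 ± 0.53 (adjusted p = 0.289), and none passed at the second (1.07% of all genes). Nanog thus rose at the first step in all 4 kinds of embryo. Whether the steps differed between the lines was not tested.

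**Figure D4:**
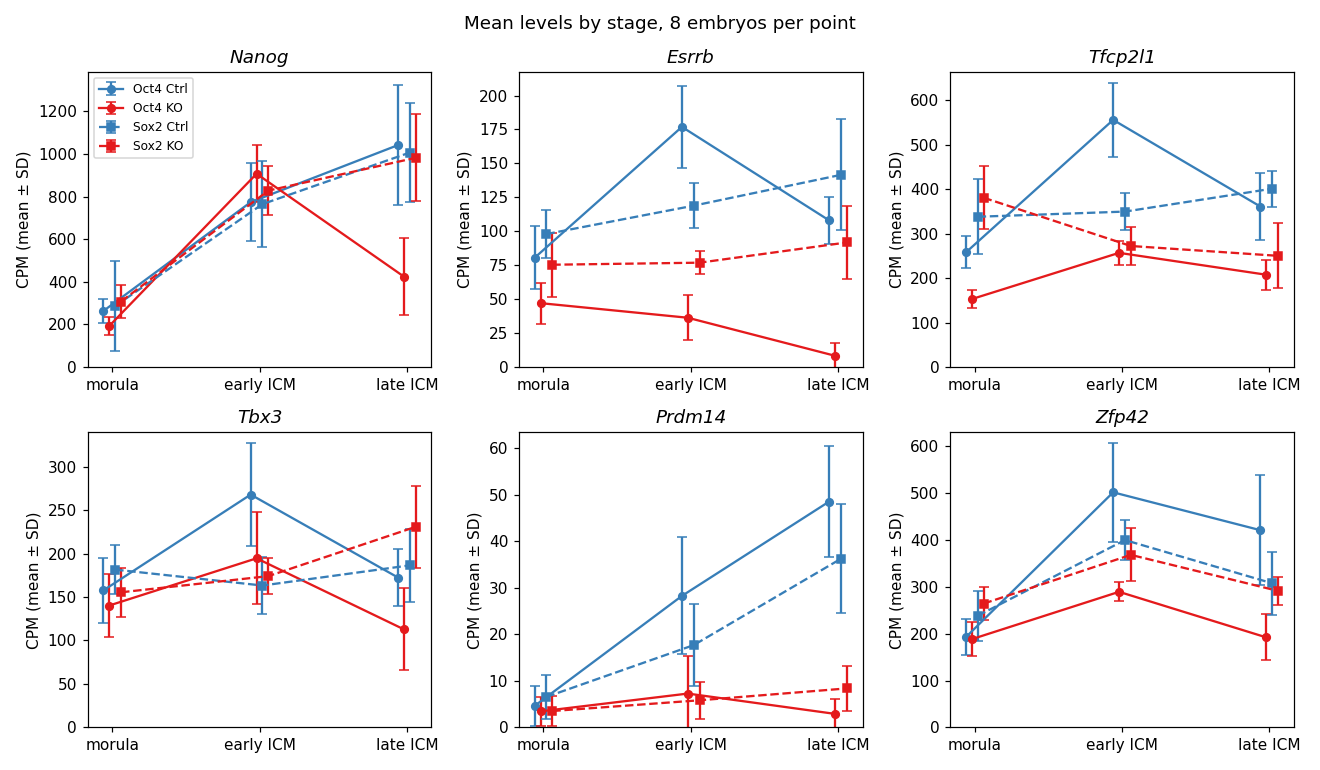
Mean CPM ± SD of the 6 genes by stage (8 embryos per point; linear axes from 0), for Ctrl (blue) and KO (red) of the Oct4 line (solid, circles) and the Sox2 line (dashed, squares). Nanog in Oct4-KO embryos goes from 193 to 907 and back to 425 CPM, while Esrrb goes from 47.1 to 36.4 to 8.36 CPM.

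Maternal loss was read from Ctrl minus MWT, in a fit of the embryos of all 16 groups and 13923 genes. Ctrl and MWT embryos came from different mothers, so other differences between the matings are part of this comparison. For the 13 Oct4 MWT ICMs the second label gave an earlier stage than the title. In the Oct4 ICM comparisons stage and maternal loss may therefore not be told apart. No gene of the 6 passed in Oct4 morulae (0.0646% of all genes passed), Oct4 early ICMs (0.373%), Oct4 late ICMs (0.797%) or Sox2 early ICMs (2.58%), and every pair of groups overlapped. Tbx3 in Oct4 early ICMs came nearest, at 163 ± 24.8 CPM in 5 MWT and 268 ± 58.8 in 8 Ctrl ICMs (0.74 ± 0.20, adjusted p = 0.0512). Prdm14 had the largest estimate, -0.94 ± 0.32 in Oct4 late ICMs (adjusted p = 0.108), with 51.1, 91.2 and 180 CPM in MWT and 26.7, 48.5 and 63.3 in Ctrl. These comparisons share the Ctrl embryos with those of KO against Ctrl.

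The rest of the naive network gives the setting. Of 29 other naive pluripotency genes on a list made for this work, 27 were tested. That list was chosen with earlier results of these data known, so its counts and medians describe it and are no independent test. In Oct4-KO early ICMs 12 fell and none rose, where 6.11% of all genes fell, and the median log2 fold change was -1.26, against -0.88 for the 6 factors and 0.01 over all genes. Utf1 (-2.99 ± 0.24), Tdgf1 (-4.11 ± 0.34), the Nodal-related ligand Gdf3 (-6.38 ± 0.53) and the cytokine receptor subunit Il6st (-6.002 ± 0.65) had the lowest adjusted p. In Oct4-KO late ICMs, where 8.85% of all genes fell, 16 fell and 1 rose, the Kruppel-like factor Klf5 (1.00 ± 0.16, adjusted p = 3.63e-07), which is named after its value was seen, and the medians were -1.66 for the list, -1.10 for the 6 factors and -0.01 over all genes. In Sox2-KO ICMs 11 fell early, beside 1.69% of all genes, and 12 late, beside 3.61%. The list medians were -0.47 and -0.80, against -0.17 and -0.25 for the 6 factors and -0.011 and 0.0012 over all genes. Utf1, the Kruppel-like factor Klf2, the growth factor Fgf4 and Il6st led the late list at -2.85 ± 0.22, -2.47 ± 0.25, -3.50 ± 0.36 and -3.01 ± 0.38.

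Of 12 formative and later epiblast genes 7 were tested, and 2 fell in Oct4-KO late ICMs, where 18.1% of all genes passed: Foxd3 (-4.96 ± 0.62, adjusted p = 2.36e-10) and Otx2 (-2.16 ± 0.82, adjusted p = 0.0346). Tcf15 rose there (2.15 ± 0.35, adjusted p = 3.60e-07) and was the one to pass in Oct4-KO early ICMs (1.53 ± 0.36; 10.9% of all genes). In Sox2-KO late ICMs Dnmt3a rose (1.43 ± 0.26) and Foxd3 fell (-2.18 ± 0.49), beside 6.95% of all genes, and none passed in the other 3 KO comparisons. Among close relatives of the 6 factors, Esrra, Tfcp2, Ubp1, Tbx2 and Yy1 could be tested, and none passed in any KO comparison. Esrra, a nuclear receptor related to Esrrb, averaged 43.1 ± 9.77 CPM in Oct4-KO late ICMs against 27.5 ± 8.501 in Ctrl (0.76 ± 0.21, adjusted p = 0.00290, under the fold minimum), so Esrrb and Esrra had estimates of opposite sign. Esrra also passed, as higher, for the Oct4-KO effect in late minus early ICMs (1.09 ± 0.30, adjusted p = 0.0158). Esrrg averaged at most 0.300 CPM in any group and Prdm1 at most 0.408.

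Over the 16 group means of log2(CPM + 1), the genes with the pattern most like each factor were sought among 7561 genes of at least 20 CPM in some group. Prdm14 was most like Ephx2 (Pearson r = 0.971), Fgf4 (0.956) and Morc1 (0.947), and Esrrb most like Usp48 (0.972), Nfatc2ip (0.937) and Poglut1 (0.923). Nanog was most like Zbtb45 (0.961), Dzip3 (0.949) and Pacs1 (0.948). Zfp42 was most like Tra2a (0.936), Nexmif (0.920) and Clec2i (0.918), and Tfcp2l1 most like Tex10 (0.923), Ppp2r1b (0.920) and Slf2 (0.918). Tbx3 had the weakest likeness, with Dis3 (0.823), Tkt (0.774) and Exo1 (0.774). Among the 6 factors themselves, r ran from 0.222 (Tbx3 and Prdm14) to 0.779 (Tfcp2l1 and Zfp42). The points share stage, culture and line, and are not independent.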

How the data were processed

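Single embryos were sequenced from the 3′ end with UMIs. The authors trimmed poly-A with cutadapt, used UMI-tools, aligned reads to mm10 with TopHat2 (Bowtie2 served for the ERCC spike-in sequences), counted them with featureCounts and corrected the UMI counts with TRUmiCount. Versions are not given in the sources used here. They deposited counts of unique transcripts for 29022 genes, and rlog values made with DESeq2, on a log2 scale, for 15747 genes.

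From the deposited counts, genes with a UMI in a share of 0.5 or more of the embryos at some stage were fitted with edgeR 4.0.16 (TMM, quasi-likelihood test, Benjamini-Hochberg adjustment) in R 4.3.3. The 96 Ctrl and KO embryos entered 1 fit with a mean per group, and maternal comparisons used all embryos. A call needed an adjusted p under 0.05 and a log2 fold change of at least 1 in size. DESeq2 1.42.0 and limma 3.58.1 (on the deposited rlog values) were alternatives. SE was taken from the fold change and its F value.

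Groups came from the labels, with 1 embryo per replicate. The genes named are the 6 factors, the targeted genes, close relatives, the 3 genes most like each factor, and at most 4 genes of each list, by lowest adjusted p in the comparison described. The factors and lists were chosen with earlier results of these data known. Each value rests on 525755 to 1344035 UMIs per embryo, and Prdm14 and Esrrb in KO on few of them.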

Additional observations from a re-analysis of the deposited data

Results flagged for a closer look

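Of 96 sets of embryos (6 genes in 16 groups), 8 held an embryo far from the others by Dixon's test at the 95% level; chance flags about 1 in 20 such sets. Nanog reached 1502 CPM in 1 Sox2 Ctrl late ICM, with the next at 1062. Esrrb reached 148.5 CPM in 1 Sox2-KO late ICM (next 99.76). In Oct4 Ctrl late ICMs 1 embryo was low for Tfcp2l1, at 195.3 CPM (next 330.1), and 1 for Tbx3, at 97.65 (next 164.7). Zfp42 stood at 120.3 CPM in 1 Sox2 Ctrl morula (next 210.4). Prdm14 was high in 1 embryo each of the Oct4 Ctrl morulae (14.28 CPM, next 5.601), the Oct4 MWT late ICMs (179.7, next 111.8) and the Oct4-KO late ICMs (10.28, next 3.577).

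All 6 genes were tested in every difference of the KO effect between lines or stages, and 7 of these tests passed. Between the Oct4 and Sox2 lines the log2 difference was -1.65 for Esrrb in early ICMs (5.52% of all genes passed). In late ICMs it was -3.08 for Esrrb, -1.27 for Nanog and -1.04 for Zfp42 (6.3%). In the Oct4 line it was -1.485 for Esrrb from morula to early ICM (3.29%), and -1.495 for Nanog and -1.40 for Esrrb from early to late ICM (3.11%). The last of these was lost with thinned counts (adjusted p = 0.0865) and with limma (adjusted p = 0.0574).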

How the results depend on the processing

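No called KO effect or difference in KO effect changed direction, and stage steps were not checked for this. Of 198 counts of passing factors, 179 stayed within 1.5 times, and a 0 that stayed 0 counts among these. Over the alternatives the count ran from 2 to 4 in Oct4-KO early ICMs and from 3 to 6 in Oct4-KO late ICMs. Over all genes the main fit passed 1529 and 2544 in these early and late ICMs. There limma passed 608 and 1243, and the adjusted p alone 2950 and 4450. With no fold minimum the count of factors that passed (share of all genes in parentheses) was 1 in Oct4-KO morulae (1.47%), 2 in Sox2-KO late ICMs (13.8%), 3 from Oct4 Ctrl early to late ICM (32.4%), 3 from Oct4-KO morula to early ICM (45.1%), 4 from Oct4-KO early to late ICM (32.5%), 1 from Sox2 Ctrl early to late ICM (7.21%), 3 from Sox2-KO morula to early ICM (51.9%), and, for differences in KO effect, 1 and 3 between lines in morulae (0.413%) and early ICMs (8.12%) and 2 from Oct4 morula to early ICM (4.84%). Thinning every embryo to 525755 UMIs gave 0 in Sox2-KO early ICMs and 1 for the Oct4 early to late difference, where Esrrb was lost (-1.29, adjusted p = 0.0865). Over all genes thinning passed 346 and 255 there, against 459 and 437 in the main fit. limma on rlog values gave 3 from Oct4 Ctrl morula to early ICM, 2 for the Oct4 morula to early difference and 1 for the early to late one. Over its 15747 genes limma passed 1935, 394 and 423 there, against 4080, 462 and 437 in the main fit. DESeq2 gave 1 from Oct4-KO early to late ICM, where Nanog was at -0.99, and passed 2148 genes in all, against 2242. With MWT embryos in the fit 1 passed from Sox2 Ctrl early to late ICM, beside 396 genes in all, against 407. The cause of these moves was not tested. Leaving out 1 embryo gave 0 to 0 in Oct4-KO morulae, 2 to 3 in early and 3 to 4 in late ICMs, and in the Sox2 line 0 to 1 in early and 1 to 1 in late ICMs.

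Embryos with the same number did not deviate together in every pair of any comparison (correlations of -0.325 to 0.273), so the numbers were not taken as pairs. As a hint from the data, 3 of the 4 numbers shared in Sox2 late ICMs correlated best with themselves (0.212 to 0.26). On the same embryos the block raised the genes called from 399 to 634 there, from 220 to 499 in Sox2 early, from 263 to 685 in Oct4 early ICMs and from 52 to 225 in Oct4 morulae, and for MWT against Ctrl it took them from 0 to 22 in Oct4 morulae, 37 to 223 in Sox2 early and 11 to 7 in Oct4 early ICMs. For the 6 factors a replicate block gave 1 in Oct4-KO morulae (Esrrb), as did the same embryos without it, an alternative chosen after seeing the data. Oct4-KO late ICMs and Sox2-KO morulae shared too few numbers for a block.

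Depth limits Prdm14 most, with 18 UMIs over the Oct4-KO late ICMs.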

Other observations

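Nanog varied most among Sox2 Ctrl morulae. Of the 8 embryos, 4 lay between 84.18 and 113 CPM and 4 between 322 and 557, and the coefficient of variation was 74.2%. The highest Oct4 MWT morula held 658 CPM, against a group median of 347. No labelled group parts these embryos, and no test was run.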
